A study of Mus musculus with 6 samples.

Results

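Cytochrome P450s, UDP-glucuronosyltransferases and sulfotransferases are the enzymes with which a cell oxidises and then conjugates drugs, hormones, vitamins and lipids. Their genes were taken from the deposited expression table by symbol: Cyp, Ugt1, Ugt2, Ugt3 or Sult followed by the number and letter codes of the families, leaving out Cyp51 and pseudogene symbols. This gave 138 genes (99 Cyp, 20 Ugt and 19 Sult) of the 24421 rows of the table. Messenger RNA had been sequenced from primary proximal tubular epithelial cells of the mouse kidney, all treated with 20 µM erastin2, an inhibitor of cystine uptake that can cause ferroptosis, for 24 h. The libraries fell into 3 labelled Atg5F/F (both Atg5 alleles floxed) and 3 labelled Atg5KO. The labels give no Cre, promoter, sex, age or animal for a library, and the p-values below therefore reflect the scatter of these 6 samples alone, part of which may be technical. There was no untreated group, and a genotype difference that exists without erastin2 cannot be told apart from one that needs it.

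P450s are haem enzymes that insert an oxygen atom into their substrate, with electrons handed on by P450 reductase in the endoplasmic reticulum or by ferredoxin in mitochondria. Glucuronosyltransferases join glucuronic acid to the product from UDP-glucuronate, and sulfotransferases join sulfate to it from the donor PAPS. The proximal tubule is known as the main site of the 1-alpha hydroxylase of vitamin D, encoded by Cyp27b1, as a site of fatty acid hydroxylation by CYP4 enzymes, and as a place where drugs are conjugated before secretion.

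Values are FPKM, fragments scaled to gene length and library size, as the authors deposited them. The FPKM steps gave back whole reads for 99.99% of the 18296 genes above 0, with implied totals of 15528454 to 30004933 reads per library. Atg5 itself was higher in the libraries labelled Atg5KO (12.5 ± 0.94 against 8.55 ± 0.54 FPKM, SD, n = 3). A value for the whole gene does not show whether an exon is missing, so the libraries are called F/F-labelled and KO-labelled, and every direction rests on these labels. The test was limma on log2(FPKM + 1) over the 11559 genes that reached 1 FPKM in 3 or more libraries, and a gene is called at an adjusted p (Benjamini-Hochberg over all these genes) under 0.05. Fold changes on this scale understate the change of low genes.

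The labelled cell type was only partly visible in its markers. Of all genes tested, 17.9% were lower and 21.3% higher in KO-labelled libraries, and each marker count here stands beside these shares. Of 19 proximal tubule markers 8 were tested, 7 of them lower and 1 higher in KO-labelled libraries, and their summed level ran from 246 to 276 FPKM in F/F-labelled and from 135 to 150 FPKM in KO-labelled libraries. Ggt1 (127 against 54.4 FPKM on average), Lrp2 (54.4 against 35.4) and Aqp1 (22.3 against 28.6) had high levels, whereas the sugar transporter gene Slc5a2 and the organic anion transporter gene Slc22a6 averaged under 0.1 FPKM in both groups and Slc22a8 was listed at 0 everywhere. The higher call, that of Aqp1, was not kept without Atg5KO replicate 1 (limma adjusted p = 0.064). Markers of the loop of Henle, distal tubule and collecting duct summed to at most 0.45 FPKM in any library, with 10 of 13 under 0.1 FPKM everywhere and Aqp2, Calb1 and Kcnj1 listed at 0. Fibroblast and pericyte markers summed to 1.68 to 2.79 FPKM in F/F-labelled and 0.615 to 0.95 in KO-labelled libraries, most of it Cspg4, the only tested one, which was lower, with 7 of 10 markers under 0.1 FPKM everywhere. Cspg4 reached 1 FPKM only in the F/F-labelled libraries, so it could be tested only by differing. Endothelial markers summed to 11.5 to 12.8 against 8.05 to 10.1 FPKM, mostly Kdr, the one lower of 2 tested, while Pecam1 and Cdh5 averaged under 0.1 FPKM. Leukocyte markers summed to 11.0 to 13.4 against 10.3 to 12.6 FPKM, mostly Csf1r (7.05 against 7.07 on average) and Cd68 (5.01 against 4.19). Neither of these 2, the only ones tested, was called. Of the 8 leukocyte markers 3 were listed at 0, and Ptprc averaged 0.0409 and 0.0252 FPKM. Without Atg5F/F replicate 1, 1 leukocyte marker was lower. Podocyte markers gave 1 higher and 2 lower of 4 tested and summed to 31.0 to 35.0 against 29.1 to 32.7 FPKM, with Nphs1 near 0. Most of the sum was Synpo (23.7 against 24.3 on average), which was not called. Podxl was higher (1.57 against 2.86), and Wt1 (3.56 against 2.43) and Cdkn1c (3.9 against 1.7) were lower. The lower ones numbered 1 without Atg5KO replicate 2 or either of Atg5F/F replicates 1 and 3. In bulk samples, fewer cells of a type and less RNA per cell cannot be told apart. The part that these marker differences have in the results below was not tested.

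Most of the 138 genes were at 0 or close to it. In every library 57 were listed at 0, where a count of 0 allows up to 3 reads, 59 were above 0 but never reached 1 FPKM, and 22 reached 1 FPKM in at least 1 library. Of these, 15 had at least 1 FPKM in all 6 libraries and 21 passed the filter of the test (15 Cyp, 5 Sult and 1 Ugt). Ugt2b34 reached 1 FPKM in a single library. Those at 0 included 12 of 15 Cyp2c genes, Cyp1a2, Cyp7a1, Cyp8b1, Cyp19a1, 8 Sult2a genes and Sult1e1, and no CYP3A gene exceeded 0.0451 FPKM. Some of these share much of their transcript with related genes, such as Cyp2c40 (72.1% of its 50-base stretches) and Sult2a2 (62.1%). How reads in shared stretches were counted is not given, so a 0 need not mean that such a gene is silent. Thresholds of 0.5 and 2 FPKM were reached by 28 and 16 genes.

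**Figure D1:**
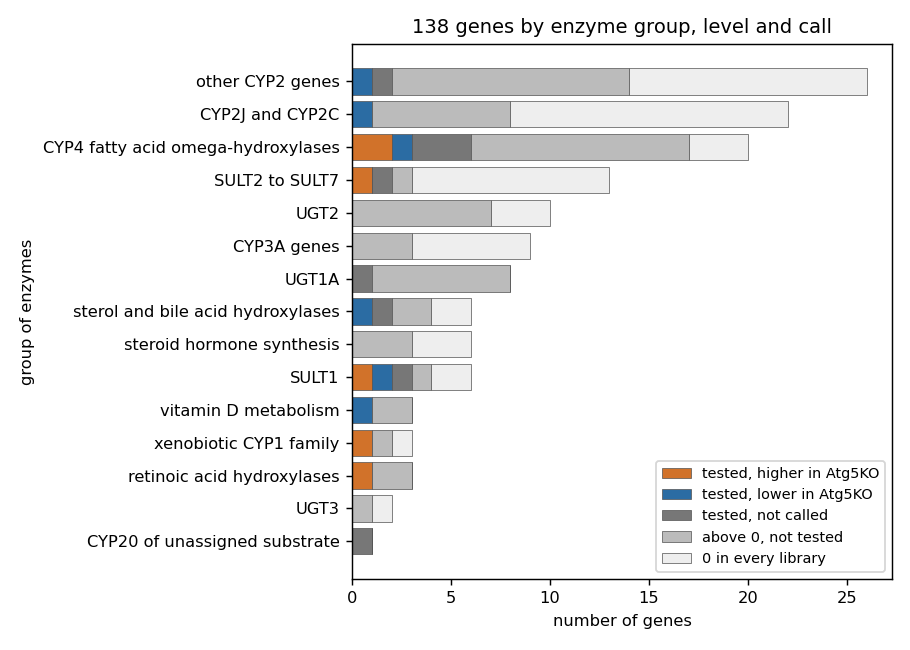
Number of genes in each enzyme group, split by level and call. Bars stack the genes called higher or lower in libraries labelled Atg5KO, those tested and not called, those above 0 but under the filter, and those at 0 in every library. Of 138 genes, 57 were at 0 and 21 were tested.

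Of the 21 tested genes, 6 were higher and 6 lower in KO-labelled libraries and 9 were not called. The share called was 57.1%, beside 39.2% of all genes tested, of which 21.3% were higher and 17.9% lower. A call with a difference of at least 0.5 on the log2 scale was made for 8 of the 21, beside 6.86% of all genes tested. The median log2 fold change of the tested genes was 0.05 against 0.02 for all genes tested, so up and down changes lay on both sides of a centre close to that of the table. The values of the 2 groups did not overlap for 13 of the 21, beside 51.9% of all genes tested. Of the 21, Sult1c2 passed the filter only through the F/F-labelled libraries and Cyp26b1 only through the KO-labelled ones, so these could pass only by differing. Sult4a1 (0.909, 0.540 and 1.03 against 1.62, 1.79 and 1.5 FPKM) also needed its higher, KO-labelled libraries to pass. The counts over tested genes are therefore a description.

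**Figure D2:**
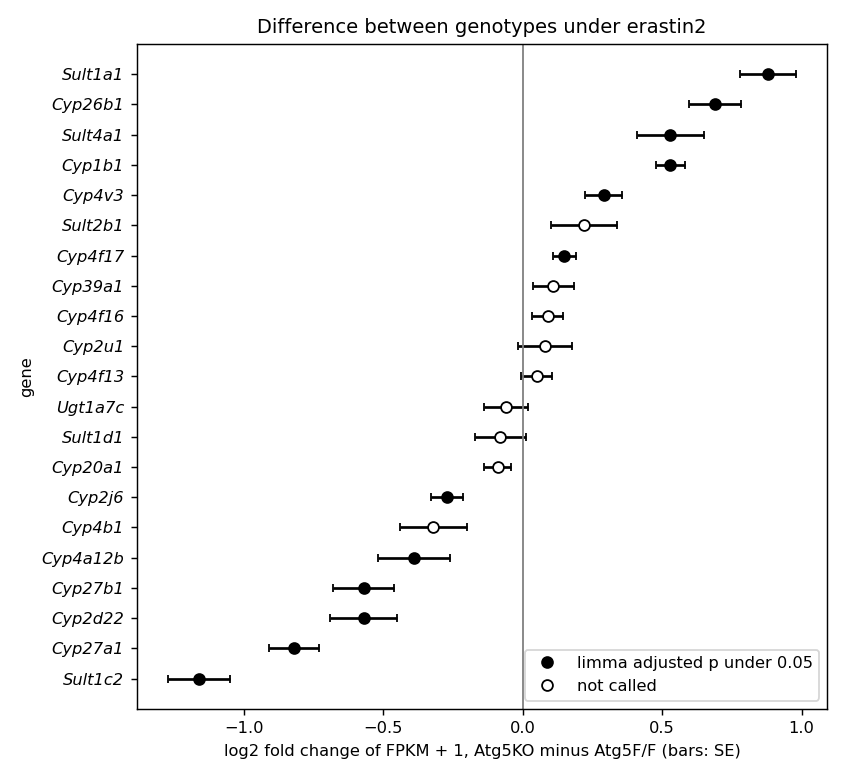
Log2 fold change of FPKM + 1 (KO-labelled minus F/F-labelled libraries, x axis) of the 21 tested genes, with SE bars; filled points are called at a limma adjusted p under 0.05. The values run from -1.16 for Sult1c2 to 0.88 for Sult1a1, with 6 called genes on each side of 0.

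The sequence before the start of 4 genes is shown because they are the vitamin D hydroxylase with the highest level, the sulfotransferase with the largest decrease, and 2 of the P450s that rose. The 300-base windows hold 250 bases before and 50 after the annotated start, 5′ to 3′ on the gene's strand, from RefSeq on GRCm38.p6. Capitals mark matches to the core bound by AHR and ARNT, the dioxin receptor pair (letters GCGTG, either strand).
Cyp1b1, chr17:79715012-79715311, minus strand: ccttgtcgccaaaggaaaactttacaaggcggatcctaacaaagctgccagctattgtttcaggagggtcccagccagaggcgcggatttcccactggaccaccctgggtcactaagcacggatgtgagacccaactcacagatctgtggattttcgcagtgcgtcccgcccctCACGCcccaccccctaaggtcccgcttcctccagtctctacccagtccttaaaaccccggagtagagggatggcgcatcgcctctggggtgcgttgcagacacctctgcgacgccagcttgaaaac
Cyp26b1, chr6:84593761-84594060, minus strand: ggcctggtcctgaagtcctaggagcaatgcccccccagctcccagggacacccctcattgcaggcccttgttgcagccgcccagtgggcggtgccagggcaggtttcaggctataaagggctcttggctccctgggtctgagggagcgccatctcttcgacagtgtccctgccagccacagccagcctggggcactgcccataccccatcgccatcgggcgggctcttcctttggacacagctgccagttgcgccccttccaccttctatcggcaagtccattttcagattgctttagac
Cyp27b1, chr10:127047996-127048295, plus strand: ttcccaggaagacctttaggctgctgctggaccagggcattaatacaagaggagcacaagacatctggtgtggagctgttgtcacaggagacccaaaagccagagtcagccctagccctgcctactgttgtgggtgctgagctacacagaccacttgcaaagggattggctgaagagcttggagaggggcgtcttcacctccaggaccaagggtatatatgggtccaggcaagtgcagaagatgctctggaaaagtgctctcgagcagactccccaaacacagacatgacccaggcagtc
Sult1c2, chr17:53845909-53846208, minus strand: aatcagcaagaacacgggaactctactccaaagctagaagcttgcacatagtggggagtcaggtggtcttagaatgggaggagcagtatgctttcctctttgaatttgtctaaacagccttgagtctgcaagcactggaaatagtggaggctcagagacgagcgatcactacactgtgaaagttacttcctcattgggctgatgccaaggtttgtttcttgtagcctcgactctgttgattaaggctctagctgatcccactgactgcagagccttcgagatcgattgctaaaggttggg

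The Cyp1b1 window held 1 match to that core, from base 175 of the window on the opposite strand, and the other 3 windows held none. Of 32851 such windows in the RefSeq table, 32.4% held the core, and of 122 windows of 109 of the 138 genes 18.0% did, windows of alternative starts of a gene overlapping in part. The core of the antioxidant response element (TGACNNNGC) was in 12.4% of all windows and in 5.7% of the genes' windows, 1 of them that of Cyp2j6. A direct repeat bound by VDR and RXR (the vitamin D receptor pair) was in 13 of all windows and in 0 of the genes' windows, and one bound by RAR and RXR was in 32 of all and in 1 of the genes' windows, that of Cyp26a1. Repeats were searched with degenerate half-sites on both strands. Cyp24a1 was among the genes without a window, so its promoter was not searched. The Cyp1b1 window had 58.3% G and C with 16 CpG dinucleotides, and that of Cyp27b1 had 54.3% with 2.

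Of the 3 vitamin D hydroxylases, Cyp27b1 and Cyp24a1 were lower in KO-labelled libraries and Cyp2r1 was not called. Cyp27b1 (chromosome 10, 127048250 to 127053006, plus strand, GRCm38) makes the active hormone and had the highest level of all 138 genes. It stood at 109, 85.1 and 104 FPKM in F/F-labelled replicates 1 to 3 and at 74.3, 57.8 and 68.0 FPKM in KO-labelled replicates 1 to 3. Every KO-labelled library was below every F/F-labelled one, and replicate 2 was the lowest of each group. The means of 99.5 ± 13 and 66.7 ± 8.4 FPKM (SD, n = 3) differed by -0.57 on the log2 scale (SE 0.11, adjusted p = 0.0035 by limma). An exact two-sided permutation test of the 6 values gave p = 0.1, the smallest that 3 against 3 can reach, as it does for every gene below whose groups do not overlap. Cyp27b1 made up 44.2% to 50.5% of the summed Cyp FPKM of F/F-labelled and 35.1% to 40.3% of that of KO-labelled libraries. The Cyp sum was 205 ± 12 against 175 ± 10 FPKM, and 106 ± 2.8 against 108 ± 1.7 FPKM without this gene (exact permutation p = 0.1 and 0.3).

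Cyp24a1 (chromosome 2, 170482708 to 170497145, minus strand), the 24-hydroxylase that breaks down vitamin D and is a textbook target of its receptor, lay under the filter. Its levels were 0.334, 0.918 and 0.516 FPKM in F/F-labelled and 0.0308, 0.108 and 0.105 FPKM in KO-labelled libraries, resting on 33, 47 and 38 reads against 2, 6 and 6. The groups did not overlap, and Atg5F/F replicate 2, which has the fewest reads in total, was the highest. Over the pooled reads the rate was 6.71 times as high in F/F-labelled libraries (95% exact interval 3.85 to 12.7, counting error only). With limma's voom on the recovered reads of genes with at least 10 reads, a test added after seeing the data, the log2 fold change was -2.66 (SE 0.58, adjusted p = 0.0014). Cyp2r1, the 25-hydroxylase, had 11 reads in all F/F-labelled and 9 in all KO-labelled libraries, and the same test did not call it (-0.04, SE 0.63, adjusted p = 0.97).

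Of 6 tested genes in the list of vitamin D handling, 5 were lower and 0 higher, beside 17.9% and 21.3% of all genes tested, with a median log2 fold change of -0.61 beside 0.02 over all genes tested. Gc, the vitamin D binding protein gene, was not called and its groups overlapped (adjusted p = 0.096 by limma), and Cubn, Trpv5, Trpv6 and Calb1 lay under the filter. The receptor gene Vdr had 9.22, 11.5 and 9.54 FPKM in F/F-labelled and 5.80, 6.12 and 6.80 FPKM in KO-labelled libraries (log2 fold change -0.61, limma adjusted p = 7.3e-04). S100g, which encodes the calcium carrier calbindin-D9k, changed by -1.76, Kl (klotho, the coreceptor of FGF23) by -0.99, and Lrp2, the megalin that takes up vitamin D with its binding protein, by -0.60. Kl passed the filter only through the F/F-labelled libraries (1.37, 1.71 and 1.64 against 0.337, 0.185 and 0.359 FPKM). It could therefore pass only by differing. Lrp2 is also among the proximal tubule markers above.

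Sterol hydroxylases differed among themselves. Cyp27a1 (chromosome 1, 74713574 to 74737892, plus strand), the mitochondrial 27-hydroxylase of cholesterol, had 4.36, 4.87 and 4.26 FPKM in F/F-labelled and 1.96, 1.94 and 2.49 FPKM in KO-labelled libraries. All 3 KO-labelled values were below all F/F-labelled ones, a 2.11-fold lower mean (log2 fold change -0.82, SE 0.089 and adjusted p = 1.9e-04 by limma). Cyp39a1, the oxysterol 7-alpha hydroxylase, stood at 5.93, 6.49 and 5.74 against 6.86, 5.95 and 7.12 FPKM, with overlapping groups and no call (0.11, SE 0.074, adjusted p = 0.25). Cyp46a1, the cholesterol 24-hydroxylase known from neurons, lay under the filter at 0.446 ± 0.070 against 0.194 ± 0.075 FPKM. Voom gave it -1.15 (adjusted p = 0.033), a call that was not kept without Atg5F/F replicate 2 (0.065) or 3 (0.072), Atg5KO replicate 1 (0.11) or Atg5KO replicate 3 (0.12). Cyp7b1 had 35 and 29 reads in the 2 groups and was not called. The steroid hormone genes Cyp11a1, Cyp11b1, Cyp17a1, Cyp19a1, Cyp21a1 and Cyp11b2 had 7 reads in all F/F-labelled and 4 in all KO-labelled libraries together.

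The retinoic acid hydroxylase and the xenobiotic P450 that were tested both rose. Cyp26b1 (chromosome 6, 84571414 to 84593908, minus strand) clears retinoic acid. From F/F-labelled to KO-labelled libraries it went from 0.894, 0.903 and 0.748 FPKM to 2.26, 1.86 and 1.86 FPKM, a 2.35-fold higher mean with no overlap (log2 fold change 0.69, SE 0.092 and adjusted p = 5.3e-04 by limma). The related Cyp26a1 and Cyp26c1 stayed under 0.2 FPKM in every library. In the list of other retinoid genes 3 of 5 tested were lower and 0 higher (median -0.26), beside 17.9% and 21.3% of all genes tested. The lower ones were the retinol dehydrogenase gene Rdh11 (-0.53), the retinaldehyde reductase gene Dhrs3 (-0.32) and the retinaldehyde dehydrogenase gene Aldh1a2 (-0.26). The retinoic acid receptor gene Rarg rose from 5.55, 5.91 and 5.47 FPKM in F/F-labelled to 7.98, 8.19 and 8.30 FPKM in KO-labelled libraries (0.46, adjusted p = 2.4e-04). The other receptor genes pointed lower without a call: Rara (8.75 against 7.6 FPKM, limma adjusted p = 0.0515) and Rarb (1.32 against 0.967 FPKM, 0.065). The partner genes Rxra (-0.15) and Rxrb (-0.16) were called lower.

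Cyp1b1 (chromosome 17, 79701537 to 79715061, minus strand), which oxidises polycyclic hydrocarbons and oestrogens, had 12.1, 11.4 and 11.5 FPKM in F/F-labelled and 16.4, 18.3 and 17.0 FPKM in KO-labelled libraries. These groups lay apart, with a log2 fold change of 0.53 (SE 0.051 and adjusted p = 1.1e-04 by limma) and values of 0.46 to 0.56 over 16 other settings. The other AHR-driven P450s were silent: Cyp1a1 never exceeded 0.0462 FPKM and Cyp1a2 was listed at 0. Of 7 tested genes in the list of further AHR targets, 2 were higher and 3 lower, beside 21.3% and 17.9% of all genes tested. Gsta2 (-1.34) and Gsta1 (-1.24), near-identical glutathione transferase genes, fell most, and Nqo1, a quinone reductase, rose by 0.36. Tiparp, a feedback gene of the AHR, was not called (0.06), nor was Ahr itself (-0.08).

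Fatty acid P450s of the CYP4 family differed in both directions. Of 6 tested genes, 2 were higher, 1 lower and 3 not called, a share of calls near the 39.2% of all genes tested. Cyp4v3 (chromosome 8, 45304944 to 45333216, minus strand), a hydroxylase of medium-chain fatty acids, had 5.44, 4.70 and 4.89 FPKM in F/F-labelled and 6.28, 6.07 and 6.63 FPKM in KO-labelled libraries (log2 fold change 0.29, SE 0.066 and adjusted p = 0.0087 by limma). Cyp4f17 rose slightly, from 18.8, 18.0 and 17.7 to 20.4, 20.5 and 19.7 FPKM (0.15, SE 0.042, adjusted p = 0.023). That call was lost without Atg5F/F replicate 2 (0.058) or 3 (0.094), Atg5KO replicate 1 (0.072) or Atg5KO replicate 2 (0.061). Its neighbours Cyp4f13 (11.6 ± 0.64 against 12.0 ± 0.49 FPKM) and Cyp4f16 (10.0 ± 0.35 against 10.7 ± 0.60 FPKM) had overlapping groups and no call.

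Cyp4a12b, a kidney arachidonic acid hydroxylase gene, had 1.6, 1.4 and 1.72 FPKM against 1.14, 0.592 and 1.20 FPKM. Its log2 fold change of -0.39 (SE 0.13 and adjusted p = 0.044 by limma) was no longer called without Atg5F/F replicates 1, 2 or 3 (0.11, 0.059 and 0.13) or without Atg5KO replicates 1 or 2 (0.050 and 0.089). Of the 50-base stretches of its transcript 49.4% occur in another gene, mostly Cyp4a12a, which had 74 reads against 48 in the 2 groups and no call, so the split of reads between them is uncertain. Cyp4a31 had 8, 11 and 5 reads against 0, 0 and 1, and voom gave it -3.10 (adjusted p = 0.0073, and 0.051 without Atg5KO replicate 1), with 21.7% of its stretches shared. Cyp4b1, which oxidises fatty acids and furans, had 2.96, 2.89 and 2.85 FPKM in F/F-labelled and 2.74, 1.61 and 2.12 FPKM in KO-labelled libraries. Its groups did not overlap, yet it was not called (-0.32, adjusted p = 0.064), and it was called without Atg5KO replicate 1 (-0.45, adjusted p = 0.012).

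Of the arachidonate epoxygenase subfamilies CYP2J and CYP2C, only Cyp2j6 was tested. It had 9.64, 9.06 and 9.57 FPKM in F/F-labelled and 7.43, 7.31 and 8.25 FPKM in KO-labelled libraries, without overlap (log2 fold change -0.27, SE 0.058 and adjusted p = 0.0068 by limma). Cyp2d22 (chromosome 15, 82370527 to 82380260, minus strand), a member of the drug-oxidising CYP2D subfamily, fell from 2.54, 3.16 and 2.12 to 1.23, 1.45 and 1.58 FPKM (-0.57, SE 0.12, adjusted p = 0.0050). Cyp2u1 (1.02 ± 0.17 against 1.14 ± 0.11 FPKM) was not called. Cyp20a1, a P450 without an assigned substrate, was among the steadier ones at 16.8, 16.2 and 15.8 against 15.8, 15.5 and 14.4 FPKM (-0.09, adjusted p = 0.18). Cyp2e1, the ethanol-inducible P450, had 9 reads in all F/F-labelled libraries and 1 in all KO-labelled ones, and voom did not call it (-1.74, adjusted p = 0.15; 95% exact interval of the pooled rate ratio 0.993 to 314).

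**Figure D3:**
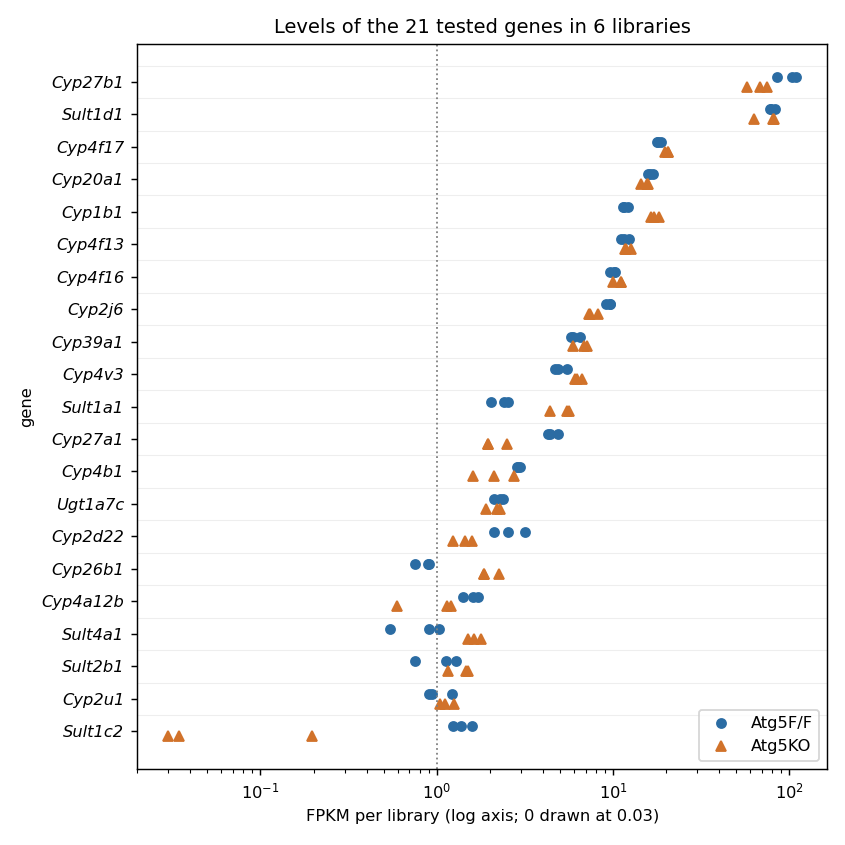
FPKM in each library (x axis, log scale, 0 drawn at 0.03) of the 21 tested genes; circles are libraries labelled Atg5F/F, triangles those labelled Atg5KO, and the dotted line is 1 FPKM. Cyp27b1 and Sult1d1 stand above all others, and the KO-labelled values of Sult1c2 lie far to the left of the F/F-labelled ones.

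Among sulfotransferases, 1 abundant gene hid opposite changes of low ones. Sult1d1, which sulfates catecholamines and is abundant in mouse kidney, had 82.9, 77.2 and 78.3 FPKM in F/F-labelled and 80.9, 63.2 and 82.2 FPKM in KO-labelled libraries. It held 88.7% to 93.2% of the summed Sult FPKM and was not called (log2 fold change -0.08, SE 0.091 and adjusted p = 0.49 by limma). Without Atg5KO replicate 2, the low library, its fold change was 0.04. The Sult sum was 85.8 ± 3.3 against 84.2 ± 11 FPKM (exact permutation p = 1), and without Sult1d1 it was 6.31 ± 0.53 against 8.78 ± 0.72 FPKM (exact permutation p = 0.1).

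Sult1c2 (chromosome 17, 53829637 to 53846339, minus strand), a sulfotransferase of phenols, was nearly lost in KO-labelled libraries. It had 1.23, 1.58 and 1.38 FPKM against 0.0346, 0 and 0.196 FPKM, resting on 54, 36 and 45 reads against 1, 0 and 5. The pooled rate was 17.9 times as high in F/F-labelled libraries, and limma gave -1.16 on the log2(FPKM + 1) scale (SE 0.11, adjusted p = 1.1e-04). Sult1a1 (chromosome 7, 126672865 to 126676432, minus strand), the general phenol sulfotransferase, went the other way, from 2.55, 2.40 and 2.03 to 5.62, 4.36 and 5.45 FPKM (0.88, SE 0.10, adjusted p = 2.3e-04). Sult4a1, known from brain and without a firm substrate, rose from 0.909, 0.540 and 1.03 to 1.62, 1.79 and 1.5 FPKM (0.53, SE 0.12, adjusted p = 0.0075). Sult2b1, which sulfates cholesterol, had overlapping groups at 1.06 ± 0.28 against 1.38 ± 0.19 FPKM and was not called.

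Glucuronosyltransferases were scarce, and the 4 that voom called on their reads were lower in KO-labelled libraries. The sum of the 20 Ugt genes was 5.13 ± 0.81 FPKM in F/F-labelled and 3.61 ± 0.11 FPKM in KO-labelled libraries (exact permutation p = 0.1). Ugt1a7c alone held 39.1% to 46.9% of it in F/F-labelled and 54.5% to 61.6% in KO-labelled libraries. Ugt1a7c was the most abundant and was not called, at 2.1, 2.37 and 2.28 against 2.20, 2.28 and 1.90 FPKM (log2 fold change -0.06, SE 0.080 and adjusted p = 0.60 by limma). The other 7 UGT1A genes together had 0.818 ± 0.14 against 0.197 ± 0.028 FPKM. Ugt1a1, which conjugates bilirubin, had 32, 23 and 30 reads against 3, 6 and 1, a 6.77 times higher pooled rate (95% exact interval 3.51 to 14.6, counting error only; voom -2.81, adjusted p = 4.2e-04). Ugt1a6a, which conjugates phenols, had 17, 11 and 13 reads against 2, 2 and 6 (voom -1.72, adjusted p = 0.017), a call not kept without Atg5KO replicate 1 (0.094) or Atg5KO replicate 2 (0.059). All UGT1A genes lie in 1 locus on chromosome 1 and use the same last exons after a first exon of their own. In GENCODE vM21, 58.9% of the exonic bases of Ugt1a1, 50.3% of those of Ugt1a6a and 54.6% of those of Ugt1a7c lie in exons of other UGT1A genes, and 41.5% of those of Ugt1a1 face an annotated gene on the opposite strand. How the authors counted reads in shared exons is not given in the sources used here, so levels within the locus are uncertain.

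Ugt2b34 had 0.908, 1.29 and 0.970 FPKM in F/F-labelled and 0.416, 0.504 and 0.528 FPKM in KO-labelled libraries, on 83, 61 and 66 reads against 25, 26 and 28. The groups did not overlap (voom log2 fold change -1.06, SE 0.24, adjusted p = 0.0017). Ugt2b37 had 11, 18 and 14 reads against 1, 2 and 7 with overlapping FPKM (voom -1.85, adjusted p = 0.035). That call was lost without Atg5F/F replicate 2 (0.080) or 3 (0.072), Atg5KO replicate 1 (0.20) or Atg5KO replicate 2 (0.085). Ugt2b35 pointed upward without a call (41 against 55 reads, voom 0.66, adjusted p = 0.19).

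Over the 30 genes under the filter that had at least 10 reads, voom called 7, all lower in KO-labelled libraries: Cyp24a1, Cyp46a1, Cyp4a31, Ugt1a1, Ugt1a6a, Ugt2b34 and Ugt2b37. Among all 3659 genes under the filter with that many reads, 16.2% were called, 5.90% lower and 10.3% higher. Leaving out Atg5KO replicate 1 brought the lower genes to 4, and they numbered 5 to 9 when another library was left out, with 0 higher in each case. Of these 7, Cyp24a1, Ugt1a1 and Ugt2b34 were called whichever library was left out. Cyp4a31 had at least 10 reads only through the F/F-labelled libraries, so the count of 7 is a description. The remaining 30 genes above 0 had fewer than 10 reads each.

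**Figure D4:**
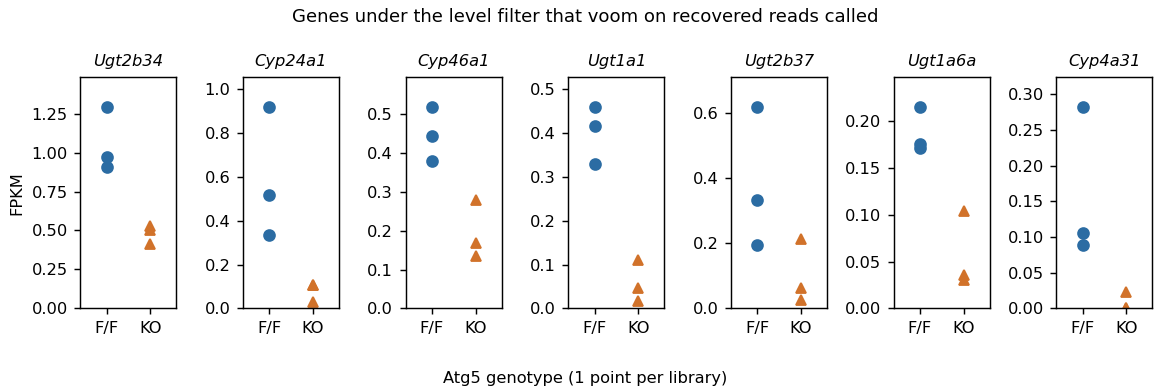
FPKM per library (y axis, a scale for each gene) of the 7 genes under the level filter that voom on the recovered reads called; circles are F/F-labelled, triangles KO-labelled libraries, 1 point each. The groups lie apart in all of them but Ugt2b37.

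The authors' deposited table has a log2 fold change and a false discovery rate for every row. There 20 of the 138 genes were under 0.05 (15 lower and 5 higher), beside 22.0% of all 24421 rows in either direction. The split by direction was not taken over all rows, so that of the 20 genes has no counterpart. Genes at 0 count in both totals, 57 of them among the 138. In the authors' deposited table Sult1c2 had a log2 fold change of -4.13, Cyp24a1 of -2.80, Cyp26b1 of 1.21 and Sult1a1 of 1.11, on a scale without the added 1 FPKM.

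Lists of genes around these enzymes hold their electron donors and associated proteins, the supply and removal of their cosubstrates, their regulators and related enzymes. Each count below stands beside the 17.9% lower and 21.3% higher of all genes tested. Of 10 tested electron donors and associated proteins 5 were lower and 0 higher (median log2 fold change -0.18). The lower call of Cyb5a (-0.14) was borderline, at a limma adjusted p of 0.0498. Por, the P450 reductase that serves all microsomal P450s, fell from 54.3, 64.6 and 60.3 to 32.9, 38.1 and 38.2 FPKM (-0.70, SE 0.075, limma adjusted p = 1.8e-04), and Fdxr, the reductase of the mitochondrial chain, changed by -0.53. The ferredoxin gene Fdx1 was not called (0.01). For UDP-glucuronate supply, transport and removal 2 of 9 were lower, a share near that of all genes, and 0 higher (median -0.01): Ugdh, which makes UDP-glucuronate, went from 55.4, 57.2 and 56.0 to 45.2, 40.7 and 42.7 FPKM (-0.38), and Gusb, the lysosomal glucuronidase, changed by -0.30. Without Atg5F/F replicate 1, 1 gene of this list was higher. For sulfate uptake, PAPS synthesis, transport and desulfation 4 of 13 were lower and 1 higher (median -0.06), led by Bpnt1, which degrades the spent donor PAP (-0.51), and the sulfate transporter gene Slc26a11 (-0.31), while the PAPS synthase gene Papss1 rose by 0.19. The lower genes of that list numbered 2 without Atg5F/F replicate 2 or Atg5KO replicate 1, and the higher ones 2 without Atg5KO replicate 2.

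Of 18 tested regulators 9 were lower and 1 higher (median -0.17), again beside 17.9% and 21.3% of all genes tested. Among the lower ones were Hnf4a (6.78, 9.18 and 7.42 against 3.55, 3.67 and 4.05 FPKM, -0.88) and Nr1h4, the bile acid receptor FXR (-0.71). Ppara, also lower (-0.48), passed the filter only through the F/F-labelled libraries and could pass only by differing. Hnf4a is a transcription factor of proximal tubule identity and is counted among its markers above. Nfe2l2, the NRF2 gene, was not called (-0.03). Other oxidising enzymes gave 2 higher and 4 lower of 9 (median -0.29), with Adh1, an alcohol dehydrogenase, at -1.42, Xdh, the xanthine oxidase gene, at -0.88, the flavin monooxygenase gene Fmo2 at 0.87 and the soluble epoxide hydrolase gene Ephx2 at -0.48. Eicosanoid synthesis gave 2 higher and 3 lower of 9 (median -0.10), with Ptgs1, a cyclooxygenase, at -0.86, Ptgds at -0.88 and the lipoxygenase gene Alox5 at 0.66. Ptgds passed the filter only through the F/F-labelled libraries and Alox5 only through the KO-labelled ones, so both could pass only by differing. Other conjugating enzymes gave 4 lower and 0 higher of 8 (median -0.26), among them Keg1 (-1.64), the arsenic methyltransferase gene As3mt (-1.24) and Glyat, which conjugates acyl groups with glycine (-0.50). Without Atg5KO replicate 3, 1 gene of that list was higher.

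**Figure D5:**
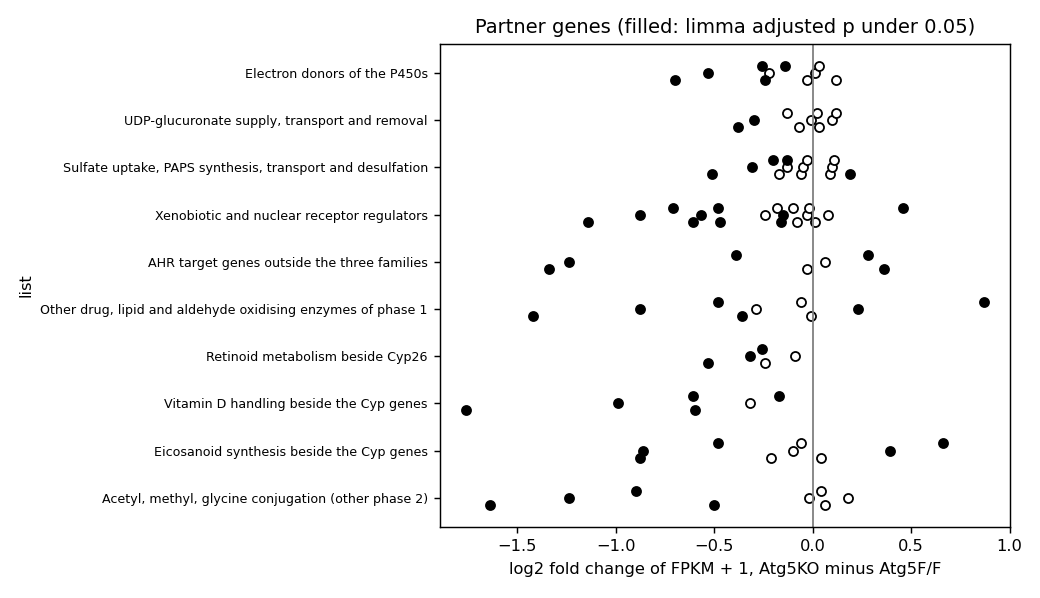
Log2 fold change of FPKM + 1 (KO-labelled minus F/F-labelled libraries, x axis) of the tested genes in 10 lists of partners and related enzymes (y axis); filled points are called at a limma adjusted p under 0.05. Most called points lie left of 0, with the receptor gene Rarg (0.46) and Fmo2 (0.87) among the exceptions.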

How the data were processed

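Per the labels' protocols, the library kit was stranded and selected mRNA. The submitters' processing notes name HISAT2 2.1.0 and featureCounts 1.4.6, with Trimmomatic 0.35, bcl2fastq and edgeR beside them, and the build GRCm38 (mm10). For annotation, strand setting and multi-mapping reads the choice is not given in the sources used here. In all, the authors deposited 1 table with FPKM per library, a log2 fold change and an FDR, a p-value adjusted over genes. The members and lists were chosen with earlier results of these data known. Whole reads and gene lengths were recovered from the FPKM steps (relative tolerance 1.5e-09, or 2e-04 reads). Differences were fitted with limma 3.58.1 in R 4.3.3 (lmFit and trended eBayes), taking log2(FPKM + 1) of genes that reached 1 FPKM in 3 or more libraries. Genes under that filter were tested with limma's voom on reads. The recovery of reads and the limma fit on FPKM were tested on simulated data, whereas voom on genes under the filter was not. Values per library are given for called genes, the 10 with the highest mean and genes whose groups did not overlap; list genes named are up to 4 called ones with the largest change, and some that this rule names are not reported here. Rarg, Rxra, Rxrb, Ppara, Cyb5a, Cyp2e1, Cyp2r1, the tested leukocyte and podocyte markers and the uncalled genes of the lists were named after their values were seen. Coordinates are from GENCODE vM21, which held 136 of the 138 symbols, and promoters from RefSeq. Libraries of a group differed by more than sampling noise (chi-square per degree of freedom 3.05 to 6.13), so none was taken as a duplicate. The alternatives were a replicate block, each library left out, another pseudocount, other filters and scalings, voom, removal of a gene length trend and no variance trend.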

Additional observations from a re-analysis of the deposited data

How the results depend on the processing

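Over 16 other settings the counts of 6 higher and 6 lower tested genes mostly held where the same genes were tested. They were 5 to 6 higher and 5 to 6 lower with a library left out, and 6 and 6 with the replicate number as a replicate block. Deviations of libraries with the same number correlated at 0.163, 0.0752 and -0.0227 and not every library correlated best with its own number, so the number was not taken to pair samples. A filter of 5 FPKM left 3 higher and 2 lower, beside 3889 of 8996 genes of the whole table called in either direction. No filter gave 10 lower, beside 4266 of 18296 genes called in either direction. Voom on genes with at least 10 reads, added after seeing the data, gave 14 lower among the 21 tested genes and the 30 under the filter. Over all 15218 genes with that many reads it called 15.9% lower and 20.4% higher. For the genes under the filter the lower count of 7 became 4 to 9 with a library left out. The call of Cyp4a12b was also lost with a pseudocount of 0.1 (adjusted p = 0.058) and with no filter (0.088), and that of Cyp4f17 with quantile normalization (0.054) and with voom (0.056, and 0.063 on genes with at least 10 reads), while voom called Cyp4b1 (0.044). Sult1d1, not called, had log2 fold changes of -0.15 to 0.04 with a library left out, the highest without Atg5KO replicate 2. Over the marker lists the higher count of 2 was 1 with no filter, 1 with a filter of 5 FPKM and 4 with voom on genes with at least 10 reads, and 1 to 2 with a library left out, and the lower count of 11 was 10 to 11 with a library left out and 6 with a filter of 5 FPKM. The fewer genes at 5 FPKM follow from the filter; for the other settings the cause was not tested. Depth limits the 30 genes with fewer than 10 reads, which were not tested.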
